A study of Mus musculus with 8 samples.

Results

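Ascl2, the basic helix-loop-helix transcription factor of intestinal stem cells, is described here together with the E proteins it can pair with (Tcf3, Tcf4 and Tcf12) and the Id proteins that bind E proteins (Id1, Id2, Id3 and Id4). Probes were taken by gene name from the array annotation, with Tcf3 under its older name Tcfe2a. The 8 genes had 16 of the 41174 probes, out of 27573 gene names: 1 probe for Ascl2 and for Id3, 2 for Tcf3, Id1, Id2 and Id4, and 3 for Tcf4 and Tcf12. Another 2 probes written Tcf3 carry the accession of Tcf7l1, an HMG box factor, and were not counted, and Tcf4 here is the E protein E2-2, not the Wnt effector Tcf7l2.

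Class II helix-loop-helix factors such as Ascl2 bind DNA as heterodimers with the widely expressed class I E proteins, at the E-box CANNTG. Id proteins have the helix-loop-helix but lack the basic DNA-binding region, so an E protein held by an Id protein cannot bind DNA. In the intestine Ascl2 is a Wnt target of the crypt base, and Id genes are known targets of BMP signalling.

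RNA of mouse small intestine was measured on 8 two-colour Agilent arrays, and each pair of RNAs was hybridised on 2 arrays with the dyes exchanged, which gave 4 RNA pairs. In Lgr5-EGFP-ires-CreERT2 mice, in which the Lgr5 promoter drives GFP, cells sorted for high GFP (GFPhi) were set against cells with low GFP (GFPlo) in 2 sorts that each pooled 3 mice. Epithelial cells of Ah-Cre/Ascl2 floxed/floxed animals (deleted) were set against Ah-Cre/Ascl2 floxed/wt controls at 3 and at 5 days after induction, with 1 RNA pair a day. The control thus also carried the Cre, which the Cyp1a1 promoter drives, and 1 floxed copy of Ascl2, although the array titles call it wildtype. The comparisons ask where these genes stand in Lgr5 stem cells and what happens to them when Ascl2 is lost. No animal numbers are given for the deletion pairs, so the p-values speak only of how much these RNA samples vary.

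The share of spots well above background ran from 35.5% to 44.6% on the sort arrays and from 55.0% to 66.9% on the deletion arrays. All 8 epithelial markers were above background in every RNA pair, and the 8 crypt base stem cell markers were all higher in GFPhi, with a median log2 ratio of 0.92. Lgr5, at 2.33, is 1 of these 8, and its direction was set by the sort on GFP. Axin2 was well above background on 4 of 4 GFPhi but 3 of 4 GFPlo arrays. It was thus tested only through the RNA where it is high. At day 5 the deleted RNA stood apart in collagen genes: Col1a1, Col1a2 and Col3a1 had log2 ratios of 5.15, 4.89 and 5.28, against -0.93, -0.74 and -1.07 at day 3. At day 3 all 6 proliferation markers were lower in the deleted RNA, with a median of -1.12, against 0.00 at day 5. Over the 23127 probes tested in the deletion the ratios of day 3 and day 5 had a correlation across probes of -0.02, against 0.70 between the sorts over 14489 probes.

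The region upstream of 3 of the genes is shown because Ascl2 is the deleted factor and Id2 and Id3 are Id genes that were higher in the deleted RNA at day 3. The sequences are the 250 bases before the annotated start in RefSeq (GRCm38.p6), 5′ to 3′ on the gene's strand. RefSeq's table held entries for 6 of the 8 genes. It had none for Tcf4 or for Id1, which was also higher in the deleted RNA at day 3. Capitals mark the E-box CANNTG and the letters GGCGCC, a known Smad-binding sequence of BMP targets.
Ascl2, chr7:142969265-142969514, minus strand: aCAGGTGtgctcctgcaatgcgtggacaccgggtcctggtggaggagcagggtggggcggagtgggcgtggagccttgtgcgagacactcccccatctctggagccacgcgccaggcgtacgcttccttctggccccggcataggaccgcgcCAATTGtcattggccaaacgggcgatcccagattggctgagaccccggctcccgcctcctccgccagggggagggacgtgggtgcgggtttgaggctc
Id2, chr12:25096093-25096342, minus strand: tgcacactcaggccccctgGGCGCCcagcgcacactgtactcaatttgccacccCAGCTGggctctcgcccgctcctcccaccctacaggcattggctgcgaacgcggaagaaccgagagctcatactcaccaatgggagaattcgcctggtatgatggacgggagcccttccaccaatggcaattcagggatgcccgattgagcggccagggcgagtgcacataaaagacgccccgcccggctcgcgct
Id3, chr4:136143572-136143821, plus strand: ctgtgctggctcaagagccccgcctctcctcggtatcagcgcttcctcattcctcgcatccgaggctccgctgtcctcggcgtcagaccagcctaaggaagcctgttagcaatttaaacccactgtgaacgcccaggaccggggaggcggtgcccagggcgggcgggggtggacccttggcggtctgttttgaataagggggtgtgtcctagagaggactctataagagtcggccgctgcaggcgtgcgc
Ascl2 had 2 E-boxes, CAGGTG at 249 and CAATTG at 98 bases before the start. In Id2 the E-box CAGCTG lay 196 bases before the start and GGCGCC 231 bases before it, while neither pattern was found in the Id3 window. Both patterns read the same on either strand, and CAGCTG is also a match to CANNTG. Of 32851 such windows in the mouse, 66.2% held CANNTG, 13% held CAGCTG and 9.59% held GGCGCC. A match is a match of letters and no evidence of binding.

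Deleted epithelium held less Ascl2 RNA than its control on each of 4 arrays, and GFPhi cells held more than GFPlo cells on each of 4. Its probe lies at chr7:142777924-142777983 on the minus strand (mm8). The labels do not say which bases the lox sites enclose, so whether the probe lies in the deleted stretch was not determined. The log2 ratio of deleted over control was -1.36 and -1.30 on the day 3 arrays and -1.34 and -1.74 on the day 5 arrays. On the first day 3 array the spot read 181 units for the deleted RNA over a local background of 59, and 924 units over 80 for the control. The deleted RNA was therefore still above background, as it was on 4 of 4 arrays. Averaged over the days, the ratio was -1.44 ± 0.15 (SD, n = 2 RNA pairs), which is 2.70-fold less Ascl2 RNA. In bulk RNA such as this, fewer cells with Ascl2 and less Ascl2 RNA per cell cannot be told apart. The 8 crypt base stem cell markers had a median log2 ratio of -0.76 at day 3 and -0.42 at day 5. At each day 1 of the 8 was above 0. The part of these cells in the Ascl2 value was not tested.

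In the joint limma fit of both comparisons this change did not pass Benjamini-Hochberg adjustment (SE 0.14, adjusted p = 0.28), and 0 of 23127 probes did, 0% in all, with 2140 at an unadjusted p under 0.05. With all 8 arrays in the limma fit and a random block for each RNA pair, Ascl2 passed (adjusted p = 0.0017), as 1 of 460 probes called there. Each day was also tested on its own, with the spread taken from the sorts and so assumed equal to theirs. Such a fit called 37.7% of all tested probes at day 3 and 12.4% at day 5, so a pass in it is common. Ascl2 then passed at day 3 (-1.33, SE 0.15, adjusted p = 2.0e-04) and at day 5 (-1.54, SE 0.15, adjusted p = 1.1e-04). The size at day 5 minus that at day 3 was -0.21 (SE 0.21, adjusted p = 0.50).

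Among the sorted cells the log2 ratio of GFPhi over GFPlo for Ascl2 was 0.45 and 0.27 on the arrays of sort 1, and 0.63 and 0.96 on those of sort 2. Both sorts were above 0, and the ratio of sort 2 was the larger on either array. The mean was 0.58 ± 0.30 (SD, n = 2 RNA pairs), or 1.49-fold. It did not pass in the joint limma fit (SE 0.14, adjusted p = 0.39), in which 0 of 14489 probes passed, 0% in all, with 1399 at an unadjusted p under 0.05. With the sorts fitted alone in limma the adjusted p was 0.0055, in a fit that called 2472 probes, 17.1% of those tested.

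The normalised log2 intensity of Ascl2 was 9.66 in GFPhi and 9.30 in GFPlo of sort 1, and 11.10 and 10.31 in those of sort 2. It was 8.38 in the control and 7.05 in the deleted RNA at day 3, and 8.37 and 6.83 at day 5. On this scale every sorted RNA lay above every epithelial RNA, and each control above each deleted RNA. GFPhi of sort 1 lay below GFPlo of sort 2, so the sorted fractions overlapped between sorts. The controls differed by 0.01 between the days. Both this difference and the order of sorted and epithelial RNAs rest on the normalisation between arrays. Before it, the Ascl2 spot of GFPhi in sort 1 read 216 and 288 units, against 924 and 654 in the day 3 control.

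**Figure D1:**
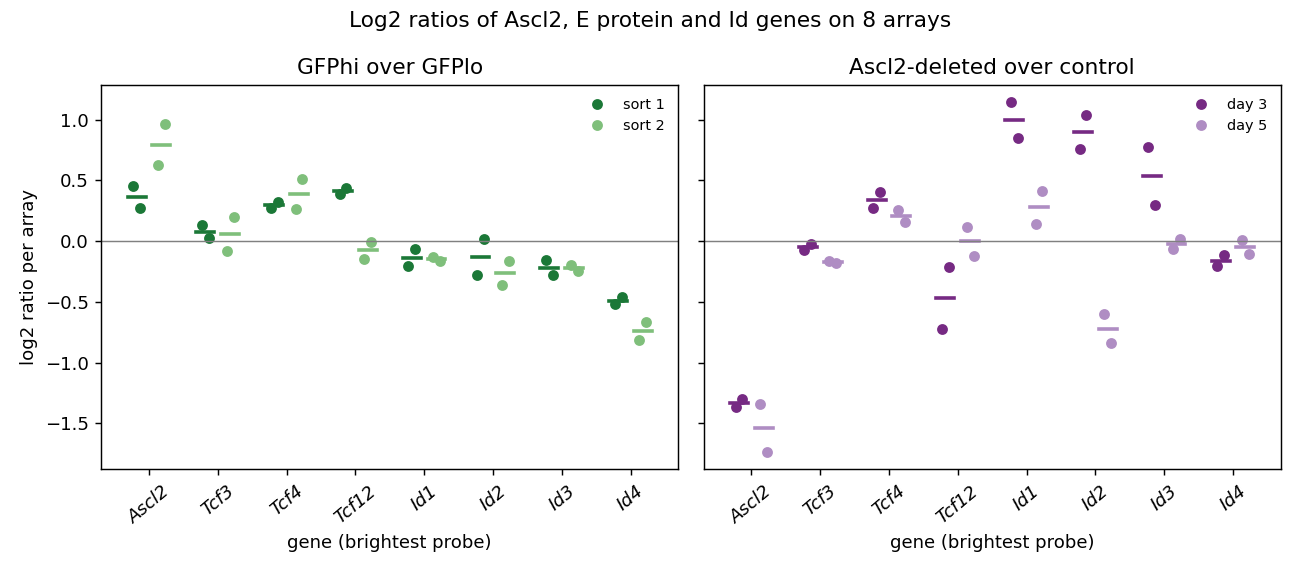
Log2 ratios of the brightest probe of each gene, 1 point an array, with a bar at the mean of each RNA pair; left, GFPhi over GFPlo, right, deleted over control. Ascl2 lies at or below -1.30 on the 4 deletion arrays, and Id2 lies above 0 at day 3 and below 0 at day 5.

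Counted by sign, 3 of the 14 member probes tested in the sorts were higher in GFPhi on all 4 arrays (Ascl2 and 2 probes of Tcf4), where 16.8% of all probes were. As many were lower on all 4 arrays (probe 1 of Id1, Id3 and probe 1 of Id4, which passed the signal filter only through GFPlo), where 15.5% of all probes were. In the deletion, 4 of the 15 tested probes were higher on all 4 arrays (both of Id1 and 2 of Tcf4; 13.1% of all probes). A further 3 were lower on all 4 (Ascl2 and both of Tcf3; 12.5% of all probes). The probes of a gene are not independent of each other, and the counts were not set against each other in a test.

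Tcf3, which encodes E12 and E47, was close to even in both comparisons. Its brightest probe (chr10:79813023-79813082, minus strand, mm8) read 0.13, 0.02, -0.08 and 0.20 on the sort arrays, -0.07 and -0.02 at day 3, and -0.16 and -0.18 at day 5. The deletion mean was -0.11 ± 0.09 (SD, n = 2 RNA pairs; limma adjusted p = 0.68) and the sort mean 0.07 ± 0.01 (limma adjusted p = 0.92). Its probe 2, centred elsewhere in the same gene, had a deletion mean of -0.13 and a sort mean of 0.02. The normalised log2 intensity of Tcf3 ran from 11.88 to 12.13 over the sorted RNAs and from 10.24 to 10.63 over the epithelial RNAs. This order too rests on the normalisation between arrays. Before it, the spot read 1114 units for GFPlo on the first array of sort 1. On the first day 3 array it read 8078 units for the control in the same dye.

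Tcf4 was higher in GFPhi and in the deleted RNA on every array by its 2 brighter probes. Probe 1 gave 0.27 and 0.32 on the arrays of sort 1, then 0.27 and 0.51 on those of sort 2. The mean was 0.34 ± 0.06 (SD, n = 2 RNA pairs) or 1.27-fold. Its size depended on the background correction: 1.69-fold with the scanner software's processed signals and 1.12-fold with normexp fitted over all spots. In the deletion the same probe read 0.28 and 0.40 at day 3 and 0.26 and 0.16 at day 5, a mean of 0.27 ± 0.09. The signs of Ascl2 in the same comparisons were opposite to each other, whereas those of Tcf4 were alike. Neither mean passed in the joint limma fit (adjusted p = 0.43 in the sorts and 0.53 in the deletion). Fitted alone, the sorts gave Tcf4 an adjusted p of 0.015 in limma, and day 3 alone gave 0.034, whereas day 5 alone gave 0.31. Probe 2 had means of 0.29 in the sorts and 0.19 in the deletion, and neither day alone passed for it in limma (adjusted p = 0.17 at day 3 and 0.37 at day 5). Probe 3 was above background too rarely to be tested, on 1 of 4 arrays for each sorted fraction and on 3 of 4 for each epithelial RNA, and read between -0.22 and 0.30.

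The probes of Tcf12, which encodes HEB, differed from each other. Probe 1 (chr9:71643063-71643122, minus strand, mm8) read 0.39 and 0.44 in sort 1 but -0.15 and 0.00 in sort 2. In the deletion it read -0.72 and -0.21 at day 3 and 0.12 and -0.12 at day 5. Day 3 alone passed in limma (-0.47, SE 0.16, adjusted p = 0.041), while day 5 was at 0.00. Probe 2, which lies 1211 bases from probe 1, read -0.27 and -0.42 at day 3 and -0.11 and 0.05 at day 5.
Probe 3, made from another cDNA and placed 98858 bases from probe 1 (chr9:71741981-71742040), read -0.12 and -0.49 at day 3 but 0.44 and 0.98 at day 5. All 3 probes were thus below 0 at day 3, and at day 5 probe 3 was 0.71 with the other two near 0. For probe 3 the difference of day 5 minus day 3 passed in limma (1.02, SE 0.16, adjusted p = 0.0017). RefSeq's table gives 3 starts for Tcf12, and which transcripts each probe reads was not determined.

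**Figure D2:**
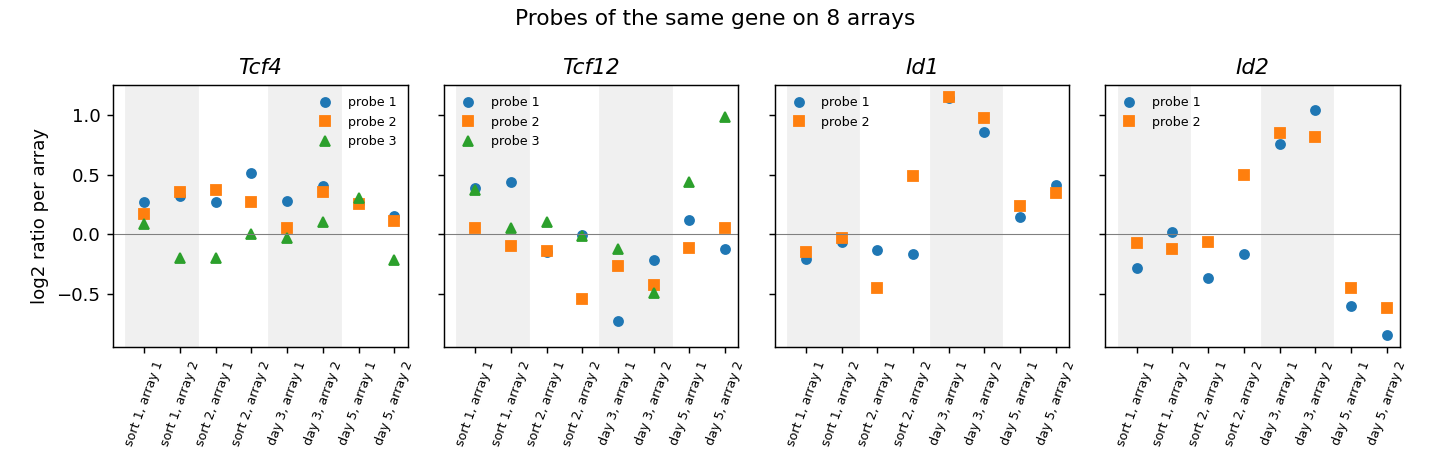
Log2 ratio per array of every probe of Tcf4, Tcf12, Id1 and Id2, in the order sort 1, sort 2, day 3 and day 5, with 2 arrays each. The probes of Id1 and of Id2 lie together on the deletion arrays, whereas at day 5 probe 3 of Tcf12 lies at 0.44 and 0.98 and the other probes of Tcf12 near 0.

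Id1, Id2 and Id3 were higher in the deleted RNA at day 3, and at day 5 none of them was higher by as much. Of the 15 member probes tested, 4 were at least 1.5-fold higher on both day 3 arrays (both of Id1 and both of Id2), where 5.05% of all probes were, and 1, Ascl2, was at least 1.5-fold lower (6.64% of all probes). At day 5 the same threshold counted 0 probes higher (3.18% of all probes) and 2 lower, Ascl2 and probe 1 of Id2 (2.01% of all probes). Tested alone in limma, day 3 called 6 of the 15 higher (Tcf4, Id1, Id2 and Id3) and 2 lower (Ascl2 and Tcf12), among 37.7% of all probes. Day 5 alone called 1 higher, Tcf12, and 3 lower, Ascl2 and both probes of Id2, among 12.4% of all probes.

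Id1 (probe 1, chr2:152428741-152428800, plus strand, mm8) read 1.14 and 0.85 at day 3 and 0.14 and 0.42 at day 5. All 4 values were above 0, and the day 3 values were above those of day 5. At day 3 the deleted RNA held 2.00-fold the control's level (SE 0.11 on the log2 scale, limma adjusted p = 1.7e-04), and at day 5 it held 1.21-fold (adjusted p = 0.14). Probe 2, which shares 50 bases with probe 1 and so is no separate reading, gave 1.06 at day 3 and 0.29 at day 5. In the sorts probe 1 read between -0.21 and -0.07, a mean of -0.14 ± 0.01 (SD, n = 2 RNA pairs; limma adjusted p = 0.92). Probe 2 read -0.45 and 0.49 on the arrays of sort 2, so the sign of Id1 in the sorts is not settled there.

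Id2 changed sign between the days. Probe 1 (chr12:25683119-25683178, minus strand, mm8) read 0.76 and 1.04 at day 3, and -0.60 and -0.84 at day 5. Probe 2, which lies 1219 bases away, read 0.85 and 0.81 at day 3, and -0.45 and -0.62 at day 5. The values of the days did not overlap for either probe. By probe 1 the deleted RNA was 1.87-fold higher at day 3 (limma adjusted p = 3.4e-04) and 1.65-fold lower at day 5 (limma adjusted p = 0.0023). The difference of day 5 minus day 3 was -1.62 (SE 0.15, limma adjusted p = 1.2e-04) and, by probe 2, -1.36 (SE 0.18, limma adjusted p = 7.5e-04). Only 0.386% of all probes were, as probe 1 of Id2 was, at least 1.5-fold higher on both day 3 arrays and at least 1.5-fold lower on both day 5 arrays. Because of the change in sign the mean of the days was 0.09 ± 1.15 (SD, n = 2 RNA pairs; limma adjusted p = 0.95). In the sorts probe 1 read -0.28, 0.02, -0.36 and -0.16, a mean of -0.20 ± 0.09 (SD, n = 2 RNA pairs; limma adjusted p = 0.96). Probe 2 read -0.07, -0.12 and -0.06 on 3 sort arrays and 0.49 on the other.

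Id3 (chr4:135416236-135416410, plus strand, mm8) read 0.77 and 0.30 at day 3 and -0.07 and 0.02 at day 5. Day 3 was 1.45-fold higher (SE 0.11, limma adjusted p = 0.0038), with a gap between its arrays of which the lower was still above both day 5 values. The difference of day 5 minus day 3 was -0.56 (SE 0.15, limma adjusted p = 0.020). In the sorts Id3 read -0.16, -0.28, -0.20 and -0.25, a mean of -0.22 in either sort (n = 2 RNA pairs), or 1.16-fold lower in GFPhi, without passing (limma adjusted p = 0.79).

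Over all members, the difference between the days passed in limma for 6 of 15 probes, 1 higher at day 5 (Tcf12) and 5 lower (Id1, Id2 and Id3), where 29.7% of all tested probes passed. This test takes its spread from the sorts alone, since each day had 1 RNA pair. The call was lost for all 6 with the scanner software's processed signals, where limma's adjusted p was 0.15 and 0.21 for Id2, 0.29 and 0.31 for Id1, 0.40 for Id3 and 0.16 for Tcf12, at differences of the same sign. For Id1 and Id3 it was also lost with plain background subtraction, with median centring and with the deposited log2 ratios, whereas both probes of Id2 passed in each of those 3.

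**Figure D3:**
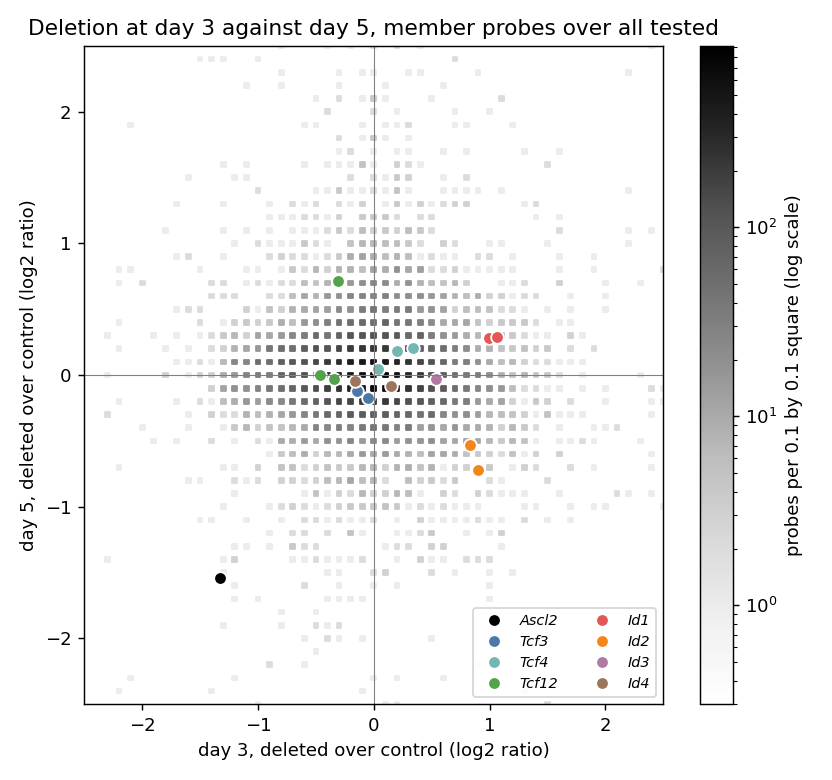
Log2 ratio of deleted over control at day 3 (x axis) against day 5 (y axis), with the member probes in colour over all tested probes in grey (squares of 0.1; 101 of 23122 probes lie outside the axes at 2.5). Ascl2 lies low on both axes, Id1 to the right and Id2 to the right and below 0.

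The controls of the days differed for Id1 by both probes and for Id2 by probe 1 but not to that size by probe 2. By probe 1 the normalised log2 intensity of Id2 was 10.11 in the control and 11.01 in the deleted RNA at day 3, and 11.18 in the control and 10.46 in the deleted RNA at day 5. The control was thus 1.07 higher at day 5 than at day 3, a shift that 2.25% of tested probes matched or passed, while the deleted RNA differed by -0.55. By probe 2 the Id2 control was 9.08 at day 3 and 9.21 at day 5, a shift of 0.13 that 67.8% of probes matched or passed, and the deleted RNA differed by -1.23 (6.37% of probes). The probes of Id2 thus placed the difference between the days on different sides of the ratio. For Id1 the control, by probe 1, went from 10.98 to 11.89, a difference of 0.91 that 3.83% of probes matched or passed, while the deleted RNA went from 11.98 to 12.17; probe 2, which overlaps it, gave a control shift of 0.89. The Id3 control moved by 0.13, from 11.22 to 11.35, and the deleted RNA by -0.43, from 11.75 to 11.33. Each of these RNAs is 1 extract, and the control shift was not tested. The shifts between the days also rest on the normalisation between arrays. Before it, the probe 1 spot of Id2 read 5776 units in the day 3 control and 11700 in the day 5 control in 1 dye. In the other dye it read 3224 and 4430 units.

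Id4 read lower in GFPhi on every sort array and close to even in the deletion. Probe 1 (chr13:48275236-48275295, plus strand, mm8) read -0.52 and -0.46 in sort 1 and -0.81 and -0.67 in sort 2. The mean was -0.61 ± 0.18 (SD, n = 2 RNA pairs), or 1.53-fold lower in GFPhi. GFPhi was well above background on 1 of 4 arrays and GFPlo on 4 of 4, so the probe passed the signal filter only through the RNA where it is high, and its ratio is a description with no test. The size depends on the background correction: with the scanner software's processed signals it was 6.11-fold lower. In the deletion Id4 read -0.21 and -0.12 at day 3 and 0.01 and -0.11 at day 5 (limma adjusted p of the mean 0.74). Probe 2 was never well above background in GFPhi, was so on 2 of 4 arrays in GFPlo, and was not tested there. It read between -0.38 and -0.10 in the sorts and had a deletion mean of 0.03.

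**Figure D4:**
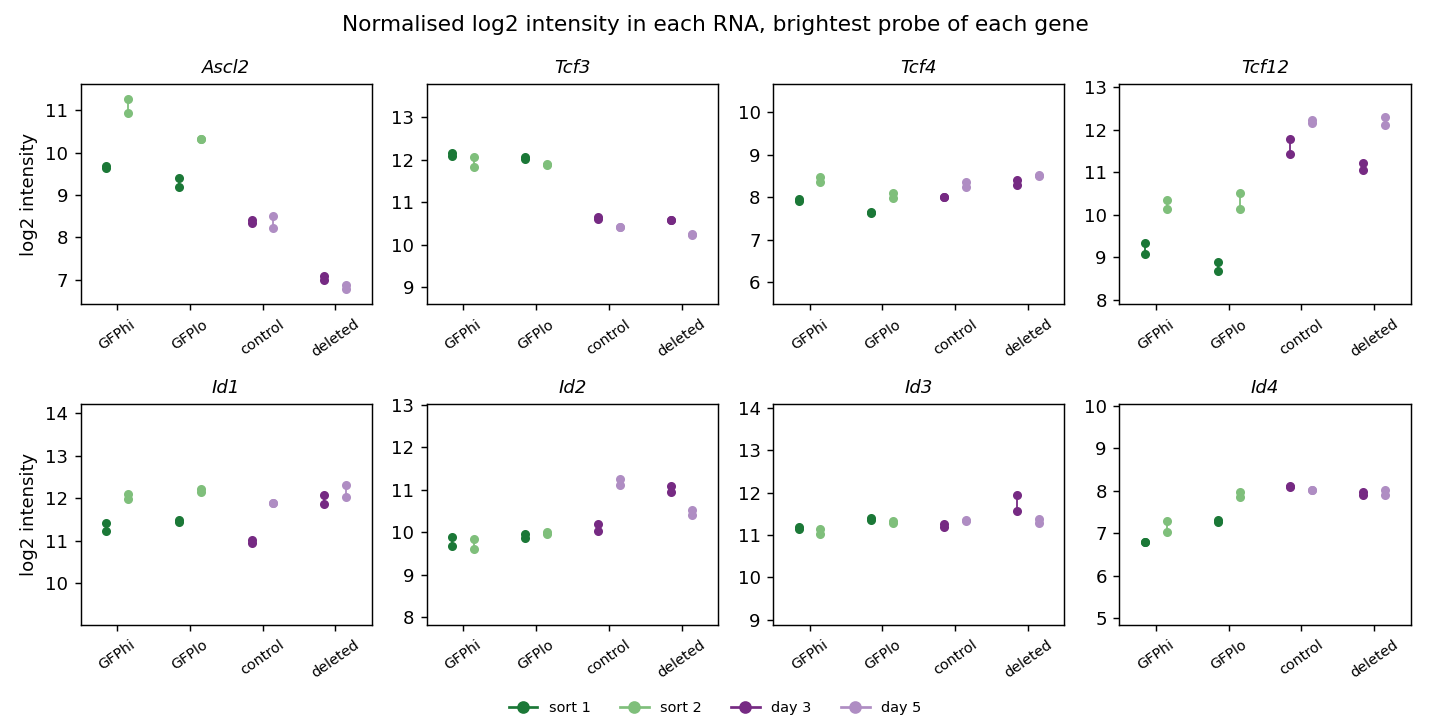
Normalised log2 intensity of the brightest probe of each gene in the 4 kinds of RNA, with the 2 arrays of an RNA pair joined by a line. Every panel spans the same range of log2 units but has its own centre, since levels of different probes are not comparable. Ascl2 is higher in GFPhi than in GFPlo of the same sort, and lower in deleted than in control RNA. The Id2 controls of day 3 and day 5 lie 1.07 apart by the probe drawn, where those of its probe 2 lie 0.13 apart. These distances and the order of sorted and epithelial RNAs rest on the normalisation between arrays.

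Marker lists of other cell types also differed between the days of the deletion, and not all in the direction of the Id genes. All 7 enterocyte markers were higher in the deleted RNA at day 3, with a median log2 ratio of 0.66, and all were lower at day 5, with a median of -0.46. Their summed normalised intensity was 514816 in the deleted and 333097 in the control RNA at day 3, and 296362 and 409795 at day 5. Of 7 T cell markers on the array 6 were higher in the deleted RNA at day 3, with a median of 0.85, and 1 at day 5, with a median of -0.06. Their summed intensity was 6264 in the deleted and 3558 in the control RNA at day 3, and 5672 and 6285 at day 5. Goblet cell markers were higher in 5 of 6 cases at day 3, with a median of 1.09, and the sum was 523750 against 187533. At day 5 the goblet median was -0.10, 3 of the 6 lay above 0, and the sum was 281277 against 347464. The tuft cell list, with 3 of 4 markers tested, had a median of 0.71 at day 3 and -0.50 at day 5. Paneth cell markers were lower in 5 of 5 cases at day 3, with a median of -1.20, and had a median of -0.04 at day 5. The fibroblast and smooth muscle list, with 6 of 8 members tested, had a median of -0.32 at day 3 and 3.23 at day 5, and a sum at day 5 of 16580 in the deleted against 4584 in the control RNA. The list was split at day 5: the collagen genes Col1a1, Col1a2 and Col3a1 read 5.15, 4.89 and 5.28 and Vim 1.57, whereas the smooth muscle genes Acta2 and Myh11 read 0.18 and -0.09. Des, a muscle marker, was above background on 0 arrays. The part of these cell types in the Id values was not tested.

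The tissue-specific helix-loop-helix genes that share E proteins with Ascl2 were mostly too dim to test. Of 41 listed genes 16 were tested in the deletion and 7 in the sorts, and 0 passed in limma in either. Their median log2 ratio was -0.03 in the deletion and -0.35 in the sorts, where the medians over all probes were 0.00 and 0.01. In the sorts 3 of the 7 were above 0 and 4 below. Those above 0 were Scx, Atoh7 and Atoh8, well above background on 4 of 4 GFPhi but 1, 2 and 3 GFPlo arrays. They passed the signal filter only through the RNA where they are high, so this split is a description with no test. The sort median is the value of Atoh1, which was well above background on 0 of 4 GFPhi and 4 of 4 GFPlo arrays. Atoh1 passed the signal filter only through the RNA where it is high, so this median is a description with no test. Bhlha15, a factor of secretory cells also called Mist1, read -1.01 at day 3 and 0.10 at day 5, and -0.65 and -0.98 in the sorts. Its difference between the days passed (limma adjusted p = 0.0022), as did that of Mesp1 (-0.31 and 0.53), a mesoderm factor named after its values were seen, and 0 of the 16 passed in the other direction, so 2 of 16 passed where 29.7% of all probes did. Lyl1, a blood cell factor, read 0.78 at day 3 and 0.38 at day 5. Atoh8 read -0.36 and -0.38. In the sorts Neurog3, the enteroendocrine determinant, read -0.39 and -1.25. Neurod2 had pair means of -0.75 and -0.33, but these average dye-swapped arrays of opposite sign. The first array of either sort gave -1.88 and -1.13, whereas their dye swaps gave 0.39 and 0.47. The direction of Neurod2, and so its place among the 4 below 0, is not settled.

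Among Hes, Hey and related repressors, which are Notch targets in part, 7 of 12 were tested in the deletion and 4 in the sorts. Of these 0 passed for either mean in limma. The median was -0.05 in the deletion and 0.10 in the sorts. Hes1, the main Notch effector of the gut, was lower at both days (-0.41 and -0.66; limma adjusted p = 0.45) and Hes6 likewise (-0.12 and -0.32). In the sorts Hes1 read -0.03 and 0.30 and Hes6 0.07 and 0.22. Heyl read 0.76 at day 3 and -0.11 at day 5, and its difference passed (limma adjusted p = 0.0028). A further 2 differences passed, those of Hes2 (0.71 and -0.37) and Hes5 (-0.52 and 0.18), named after their values were seen, so 3 of 7 passed where 29.7% of all probes did. Bhlhe40 was lower in GFPhi, at -0.47 and -0.55.

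The BMP and Smad list holds the ligands, receptors and Smads upstream of Id genes and the feedback inhibitors beside them. Of 29 genes 18 were tested in the deletion, 13 above 0 and 5 below, with a median of 0.15. In the sorts 12 were tested, 8 above 0 and 4 below, with a median of 0.07. In either comparison 0 passed in limma. Bmpr1a and Msx1, above 0 in the sorts, were well above background on 4 GFPhi but 3 and 2 GFPlo arrays. Chrd, below 0, was so on 3 GFPhi and 4 GFPlo arrays. These genes passed the signal filter only through the RNA where they are high, so the sort split and median are a description with no test. At day 3 alone 14 of 18 were above 0, with a median of 0.11, and at day 5 alone 8 of 18, with a median of -0.01. The difference between the days passed in limma for 3 genes that were lower at day 5 and 2 that were higher, so 5 of 18 passed where 29.7% of all probes did. Smad7, an inhibitory Smad that BMP and TGF-beta signals induce, read 0.77 at day 3 and -0.04 at day 5 (limma adjusted p = 0.0039). Smad6 (0.47 and -0.14) and the ligand gene Bmp2 (0.69 and -0.05) were the other two, named after their values were seen. The ligand gene Bmp7 read -1.08 and -0.24, and Rgmb, a BMP co-receptor gene that is also on the crypt base list, read -0.72 and 0.03. Bambi, a decoy receptor, was lower at both days (-0.68 and -0.46).
Rgmb had the highest ratio of the list in the sorts, at 0.88 and 1.46 (limma adjusted p = 0.35). Acvr2b, a type II receptor, read 0.17 and 0.55, and Smad5 0.35 and 0.21.

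Among the E protein co-factors Cbfa2t3, a co-repressor of the ETO family, read -1.47 and -1.15 in the sorts (limma adjusted p = 0.20). Its relative Cbfa2t2 read 0.20 and 0.17 there. Another relative, Runx1t1, read -0.32 and -0.40 in the sorts. It was well above background on 0 of 4 GFPhi and 1 of 4 GFPlo arrays, so it was not tested there. Ldb1, the LIM-domain binding partner, read 0.22 and 0.41. In the deletion Lmo4, a LIM-only factor, read -0.78 at day 3 and 0.02 at day 5, and its difference passed (limma adjusted p = 0.0039), as 1 of 10 where 29.7% of all probes passed. The acetyltransferase gene Kat2b read 0.44 and 0.22, and Runx1t1 -0.39 and -0.07. Of the co-factor list 10 of 12 were tested in the deletion, with a median of -0.09, and 6 in the sorts, with a median of 0.11. The HMG box factors, whose names resemble those of E proteins, had medians of 0.13 over 4 genes in the deletion and 0.18 over 2 in the sorts. Tcf7l2 read 0.40 and 0.37 in the deletion and 0.08 and 0.15 in the sorts. Lef1 read 0.14 and 0.29 in the deletion, and Tcf7 -0.30 and 0.10 there and 0.17 and 0.32 in the sorts.

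**Figure D5:**
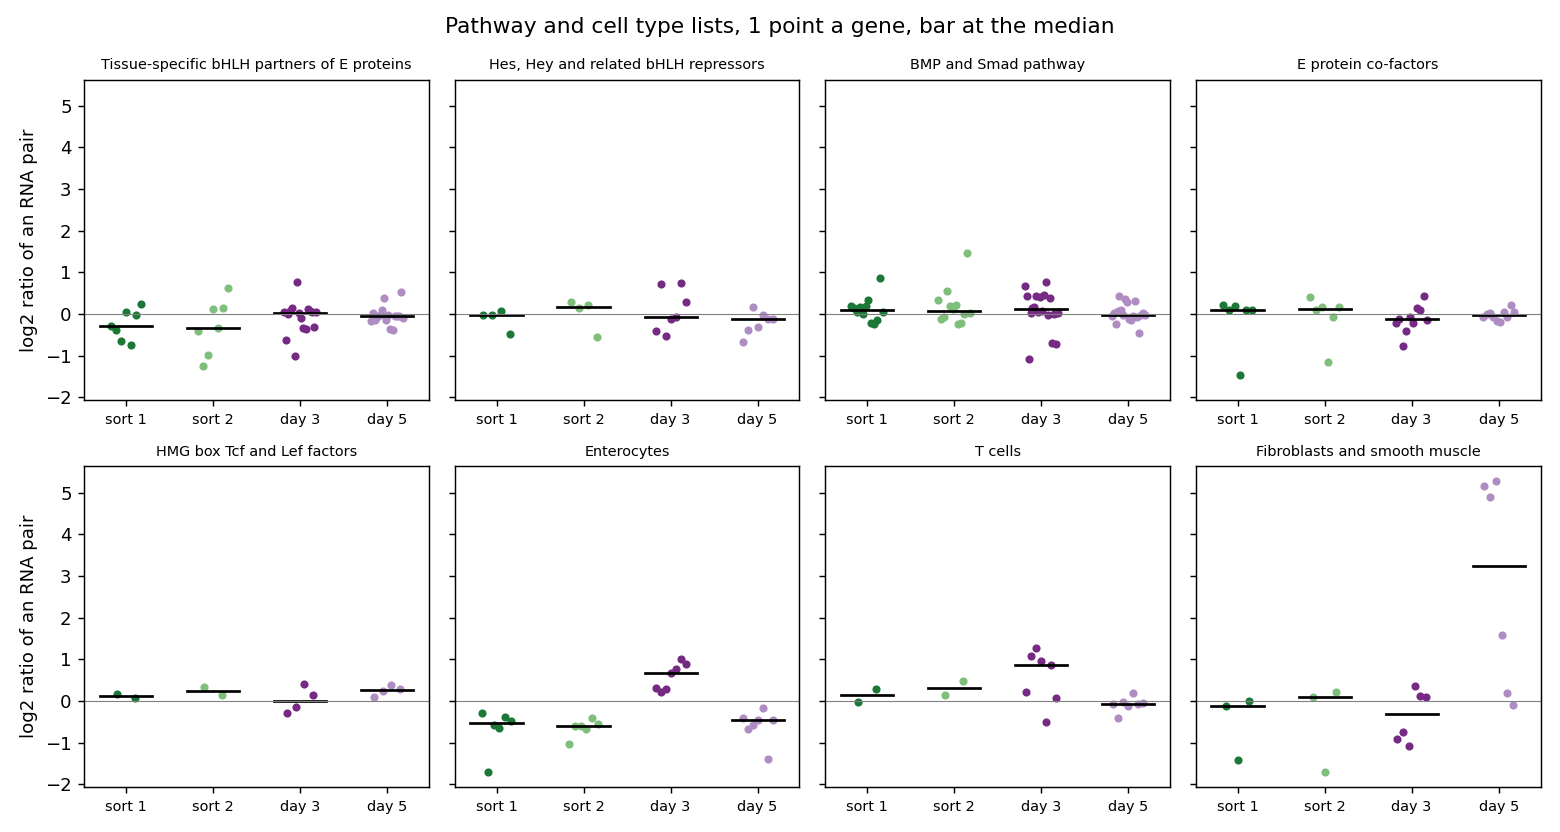
Log2 ratios of the tested genes of the 5 pathway lists and of the enterocyte, T cell and fibroblast lists in each RNA pair (GFPhi over GFPlo, or deleted over control), 1 point a gene and a bar at the median. The pathway medians lie between -0.13 and 0.27 in the deletion pairs, and the fibroblast list has a median of 3.23 at day 5.

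The genes whose pattern over the 4 RNA pairs lay nearest to that of Ascl2, by Euclidean distance over the log2 ratios of 9014 named genes, were Pcdh8, Kif12, Nr2e3, Mycbpap and Pnliprp1. Pcdh8, a protocadherin gene, was the nearest at a distance of 0.42, with 0.55 and 0.66 in the sorts and -1.04 and -1.72 in the deletion. Kif12, a kinesin gene, lay at 0.66, with 0.99 and 0.88, and -1.17 and -1.40. Nr2e3, a nuclear receptor gene, lay at 0.71, with 0.73 and 0.80, and -0.78 and -1.79. Mycbpap lay at 0.71 and Pnliprp1, a lipase-related gene, at 0.75. Of the other members Tcf12 lay at 1.97, in place 1793 of the 9014 genes, and Tcf3 at 2.03, in place 2381. Tcf4 and the Id genes took places from 6878 to 8762, the last that of Id1 at 3.14. The measure rests on 4 points and is a description.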

How the data were processed

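The authors deposited Agilent scanner output of 8 arrays (Feature Extraction 9.5.3.1, protocol GE2-v5_95_Feb07, per the file headers), with red and green spot intensity, background, processed signals and a log10 ratio per spot. They also deposited a table of log2 ratios whose values follow the scanner log10 ratio turned to GFPhi/GFPlo or deleted/control (correlation of 0.972 or more on each array), with medians from -0.02 to 0.03; its row filter was not given in any source used here. Probe positions are in mm8, per the file headers. Trizol extraction and linear amplification came before labelling, per the labels' protocols.

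From the 43379 non-control spots of 41174 probes, normexp (offset 50; limma 3.58.1, R 4.3.3) was fitted on spots without an outlier mark, since on 3 arrays a few spots with bright local background set the fit over all spots. Loess within each array gave control spots weight 0. Dye-swapped arrays were averaged to 1 RNA pair. A probe was tested in a comparison when 1 of its RNAs was well above background on all 4 arrays. A joint lmFit and eBayes fit gave each comparison 2 RNA pairs, with Benjamini-Hochberg adjustment over all tested probes at 0.05, two-sided. The number of RNA pairs, 2 a comparison, limits the precision. Levels are log2 intensities after Aquantile. Names follow RefSeq by accession for 23374 probes, else by symbol. A gene is represented by its brightest probe. Named were all members, the 5 genes nearest to Ascl2, and of each pathway list the 3 largest absolute mean ratios in either comparison. The members and lists were chosen with earlier results of these data known. The fits were tested on simulated data. Alternatives covered background, normalization, filters, outlier spots, 1 probe a gene, fits alone, a random block and each RNA pair left out.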

Additional observations from a re-analysis of the deposited data

Results flagged for a closer look

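The difference between day 5 and day 3 of the deletion passed at limma adjusted p values under 0.05 for 6 of 15 member probes, where 29.7% of all probes passed, with the spread taken from the sorts. All 6 calls were lost with the scanner's processed signals. The day 5 ratio minus the day 3 ratio was -1.62 and -1.36 for the probes of Id2, -0.72 and -0.77 for those of Id1, -0.56 for Id3 and 1.02 for probe 3 of Tcf12. In Id2 the arrays of day 3 were all above 0 and those of day 5 all below.

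Probe 2 of Id2 stood far from the other sort arrays on 1 array of sort 2, at 0.49 against -0.12 to -0.06. Chance alone marks about 1 in 20 groups of 4 independent values. The 4 sort arrays are 2 RNA pairs with 2 dye-swapped arrays each, so this rate need not hold for them. On the same array probe 2 of Id1 read 0.49.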

How the results depend on the processing

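With the sorts, the count of probes called in limma was 0 as reported, 1 with the scanner's processed signals, 2472 when the sorts were fitted alone and 277 with all 8 arrays and a random block for each RNA pair. In the deletion it was 0 as reported, 1 with processed signals, 3 with plain background subtraction and 460 with the random block. Leaving out 1 RNA pair gave between 0 and 2472 calls in the sorts and between 0 and 8719 in the deletion. The upper values came without the day 3 or without the day 5 pair (2472 either way) and without the day 5 pair (8719); without the day 3 pair the deletion had 2875. A pair left alone in its comparison is assumed to vary as the other comparison does. For day 5 over day 3 the 6874 calls became 51 with processed signals, 1172 with plain subtraction, 1944 with median centring and 2396 with the deposited log2 ratios. Of 607 values of member probes under an alternative, 550 kept their sign and their side of the threshold and 18 changed sign. Without 1 RNA pair the sort ratio ran from -0.0021 to 0.050 for probe 2 of Tcf3, from -0.076 to 0.42 for probe 1 of Tcf12, from -0.089 to 0.021 for probe 2 of Id1 and from -0.10 to 0.22 for probe 2 of Id2. The deletion ratio ran from -0.31 to 0.71 for probe 3 of Tcf12, -0.72 to 0.90 and -0.53 to 0.83 for Id2, -0.026 to 0.54 for Id3 and -0.080 to 0.15 for probe 2 of Id4. The other changes of sign were of values near 0. For day 5 minus day 3, Ascl2 was 0.012 with normexp over all spots; with median centring Tcf3 was 0.080 and Tcf4 0.074 and 0.13; probe 2 of Tcf3 was -0.13 with processed signals, -0.023 with plain subtraction and -0.044 with the deposited ratios. Probe 2 of Id2 was -0.022 in the sorts with normexp over all spots, and probe 2 of Id4 -0.013 in the deletion with median centring. Leaving marked spots out of the normexp fit, and setting the fit over all spots beside it, were both chosen after seeing the data; the latter put the sort ratio of Ascl2 at 0.36 and of Id4 at -0.27, against 0.58 and -0.61. The cause of these changes was not tested. The slide as a block was not run, since each RNA pair lies on its own slide. Genes near background, Id4 in GFPhi above all, have sizes that follow the background correction.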
